A study of Bos taurus with 15 samples.

Results

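The comparison described here sets the post region of unanchored engineered meniscal tissue against the middle region of the same kind of tissue, across all genes with enough counts to be tested. Its members were chosen from the sample labels: the 3 libraries labelled unanchored mold, post region, and the 3 labelled unanchored mold, middle region, which are 6 of the 15 libraries of the study. All tissues held bovine meniscal fibrochondrocytes, the resident cells of the knee meniscus, and were harvested at day 28, after 3 days in growth medium (10% fetal bovine serum), then 25 days in chondrogenic medium that held ascorbic acid (50 µg/ml), dexamethasone (1e-07 M) and transforming growth factor β3 (10 ng/ml). The unanchored tissues were cast in 3D-printed molds without post anchors, and the other molded tissues, used here only for comparison, were cast with them. Each tissue was cut into regions and each region was dissected further before RNA was extracted. The labels do not say whether the 3 libraries of a group came from separate tissues, animals or cultures, or whether a post library and a middle library came from 1 tissue. The spread that the p-values measure is thus that between libraries, and it may be technical.

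The meniscus is a wedge of fibrocartilage in the knee. Its inner part is richer in the proteoglycan aggrecan and in type II collagen, like hyaline cartilage, while its outer part and its ends, which are tied to bone, consist mostly of type I collagen fibers. Fibrochondrocytes contract the gel they are seeded in, and posts or clamps are used in tissue engineering to resist that contraction.

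Total counts of the 6 libraries ran from 5100848 to 6739123. Among genes, which are not independent replicates, r was 0.989 to 0.993 for pairs of libraries within a group and 0.984 to 0.99 for pairs across the groups. No pair within a group matched to within sampling noise, as chi-square divided by its degrees of freedom was 3.51 to 8.6. Middle library 3 stood apart from the other middle libraries: on the first principal component of the 6 libraries, 37.4% of the variance, it scored -0.485, against -16.4 and -17.8 for middle libraries 1 and 2 and 6.77 to 19 for the post libraries. Its chi-square per degree of freedom was 8.6 and 7.16 with middle libraries 1 and 2. With post libraries 1, 2 and 3 it was 5.52, 7.72 and 6.22. On the second component, 21.6% of the variance, post library 2 scored highest, at 18.5, against -14.3 to 1.96 for the others. The defining genes of the labelled cell type, COL1A1, COL1A2, COL2A1, ACAN, COMP, SOX9, DCN and FMOD, were each above 10 CPM (counts scaled to a common library size) in the mean of each region; the lowest was COL2A1 at the post, with 48.4. Of 13 endothelial markers 1, ERG, had enough counts to be tested, as did 5 of 16 leukocyte and 2 of 10 Schwann cell markers. CDH5, SOX10 and MYOG, defining genes of endothelial, Schwann and muscle cells, had 0 counts in all 6 libraries. Other members of these lists had counts. ERG averaged 76.4 CPM in the middle and 76.5 at the post, S100B 361 and 367, and DES 9.4 and 9.77. The summed Schwann markers stood at 592 to 666 CPM in the middle and 580 to 622 at the post, and the mural markers at 92.2 to 116 and 82.2 to 99. Whether such cells were present was not tested. The summed leukocyte markers stood at 17 to 21.4 CPM in the middle libraries and 17.4 to 19.5 in the post libraries. Of the genes of 10 marker lists for other cells (endothelial, mural, leukocyte, Schwann, muscle, red blood, synovial lining, epithelial, liver and lung), PRG4, a synovial lining marker, was the 1 that passed between the regions.

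Few genes passed between the 2 regions in the fit of all 15 libraries, and most of these were lower at the post. A gene that did not pass is not shown to be alike in both regions, and other fits gave other counts, as described below. Of 11834 genes tested, 53 passed an adjusted p of 0.05 (0.448%), 45 of them lower at the post (0.38%) and 8 higher (0.0676%), by the quasi-likelihood test of edgeR adjusted by the method of Benjamini and Hochberg. Log2 fold changes here are post over middle, so that a negative value means less at the post. At an unadjusted p under 0.05 there were 1648 genes (13.9%), 725 higher and 923 lower. The median over all genes tested was -0.01, while the median of the 45 lower genes was -0.71 and that of the 8 higher genes 0.67. Only 11 of the 45 were lower by at least 2-fold, and 3 of the 8 were higher by as much. The 3 post libraries did not overlap the 3 middle libraries in 44 of the 45 lower genes, all but MEST, and in all 8 higher genes, which was so for 21% of all genes tested. The 53 genes were chosen by a test on these same libraries, so this separation adds no support to the calls. In bulk tissue, fewer cells that express a gene and less RNA of it per cell cannot be told apart.

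The count depended on single libraries. It was 2 without middle library 2, 7 without post library 3, 14 without middle library 1, 14 without post library 1 and 24 without post library 2, but 134 without middle library 3, the library that stood apart. No call changed direction in any of these fits, and 2 genes, FGL2 and SFRP2, passed in all 6 of them. Without 3 shallow libraries of other groups (libraries 1 and 3 of cells in collagen without a mold, and anchored middle library 2), none of them of unanchored tissue, 149 genes passed, including all 53. Fitted on the 6 libraries alone, the comparison gave 192 genes, 122 lower and 70 higher, and again included all 53.

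**Figure D1:**
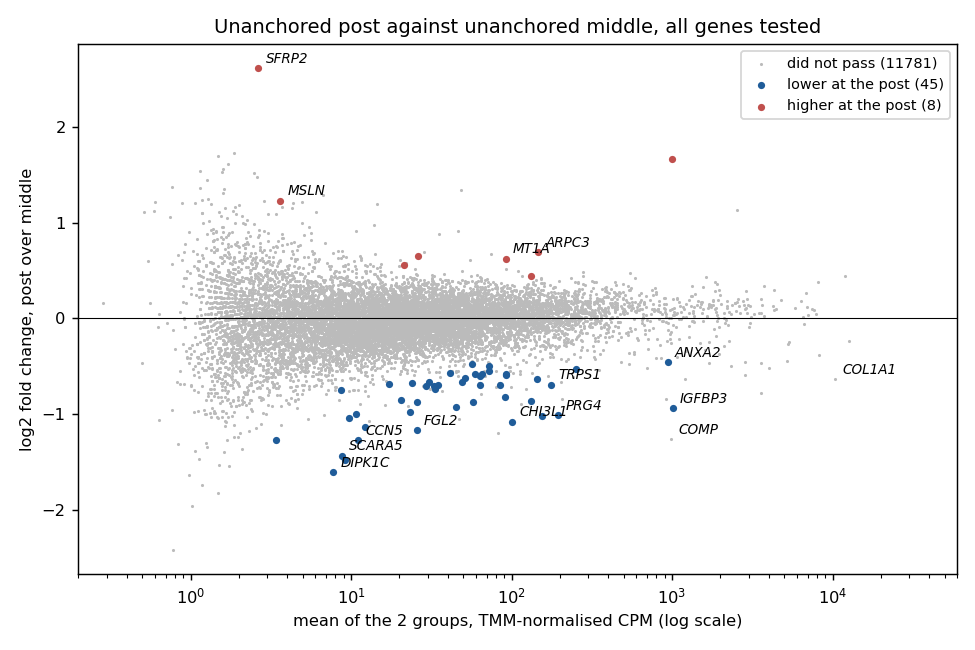
Each point is 1 of 11834 genes, with the mean of the middle and post groups in TMM-normalised CPM on a log axis and the log2 fold change of the unanchored post over the unanchored middle. Blue points are the 45 genes lower at the post and red points the 8 genes higher at it. The lower genes are spread over expression levels, with DIPK1C and SCARA5 near 10 CPM and IGFBP3 near 1000.

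Genes of cartilage and joint surface matrix were among those lower at the post. PRG4 (ENSBTAG00000011932), which encodes lubricin, the lubricant of joint surfaces, had 241, 296 and 244 CPM in middle libraries 1, 2 and 3 and 157, 137 and 93.6 in post libraries 1, 2 and 3. The post libraries were all below the middle libraries, and the gene fell by 1.01 in log2 units (adjusted p = 0.0134 by edgeR, SE 0.18). Its call ended without middle library 2 (adjusted p = 0.131 by edgeR) or post library 3 (0.14). Of its counts 64.1% sat in values that are not whole numbers, as reads split between several genes give. Here and below, a value enters this share in full when any part of it is not whole. Such shares are thus not shares of split reads. CILP, the gene of cartilage intermediate layer protein, had 21.5, 21.8 and 20.1 CPM in the middle and 12, 14.8 and 12.8 at the post, a fall of 0.68 (adjusted p = 0.0478 by edgeR, SE 0.156). That call ended without middle library 1 (adjusted p = 0.175), middle library 2 (0.279), post library 1 (0.155), post library 2 (0.0824) or post library 3 (0.228). It also ended with the 12 molded libraries (0.0777), RLE scaling (0.0535), upper-quartile scaling (0.0546) or without genes in non-whole values (0.0564). These were the 2 of 12 measured cartilage matrix genes that passed, beside 0.38% of all genes called lower. Of the 12, 11 had a negative estimate, against 51.7% negative estimates over all genes. The median log2 fold change was -0.60, and 0 were called higher. The exception, COL11A2, averaged 1.10 CPM in the middle and 1.64 at the post, with every post library above every middle library. It did not pass (log2 fold change 0.57, adjusted p = 0.544 by edgeR).

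COMP, the gene of cartilage oligomeric matrix protein, lay just outside the threshold. It had 1431, 1947 and 798 CPM in middle libraries 1, 2 and 3 and 658, 717 and 369 in post libraries 1, 2 and 3, a log2 fold change of -1.26 (adjusted p = 0.0503 by edgeR, SE 0.291). In both regions library 3 held the lowest value, so that middle library 3 came near post libraries 1 and 2 without overlapping them. It passed with the 6 libraries alone (adjusted p = 0.0186 by edgeR) and without the 3 shallow libraries of other groups (0.00857). It also passed without genes in non-whole values (0.0248), without a filter on low counts (1.06e-24) and without middle library 3 (0.00906). Without the filter the estimate for COMP was nearly unchanged, at -1.26, so mainly the p-value moved. That was also so for the other genes given a value without a filter below. The cause was not tested, and these p-values are to be read with caution. ACAN, the gene of the proteoglycan aggrecan, was also lowest in library 3 of each region, with 173, 186 and 85.1 CPM in the middle and 97.1, 95.2 and 46.9 at the post. Its groups overlapped, and it did not pass (log2 fold change -0.90, adjusted p = 0.121 by edgeR). It passed without middle library 3 (adjusted p = 0.0192) and without a filter on low counts (6.47e-12). COL2A1, the collagen of hyaline cartilage, had 77.2, 88.5 and 30.7 CPM in the middle and 59.7, 65.9 and 19.5 at the post and a log2 fold change of -0.45 (adjusted p = 0.649 by edgeR, and 0.0229 without a filter). CHAD (chondroadherin), chosen after its value was seen, had means of 63.4 and 31 CPM and also missed the threshold (log2 fold change -1.05, adjusted p = 0.0524 by edgeR).

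Among transcription factors of chondrocytes, 1 of 8 measured passed, beside 0.38% of all genes called lower. TRPS1, a repressor of the GATA family active in growth cartilage, had 209, 259 and 183 CPM in the middle and 139, 141 and 123 at the post and fell by 0.69 (adjusted p = 0.0298 by edgeR, SE 0.144). Without middle library 1 (adjusted p = 0.0829), middle library 2 (0.308), post library 1 (0.0842), post library 2 (0.0822) or post library 3 (0.197) it did not pass. SOX9, the factor that switches on COL2A1 and ACAN, had 131, 131 and 109 CPM in the middle and 136, 132 and 118 at the post. Those groups overlapped, at a log2 fold change of 0.06 (SE 0.0997, adjusted p = 0.849 by edgeR). The median of the 8 factors was -0.19.

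**Figure D2:**
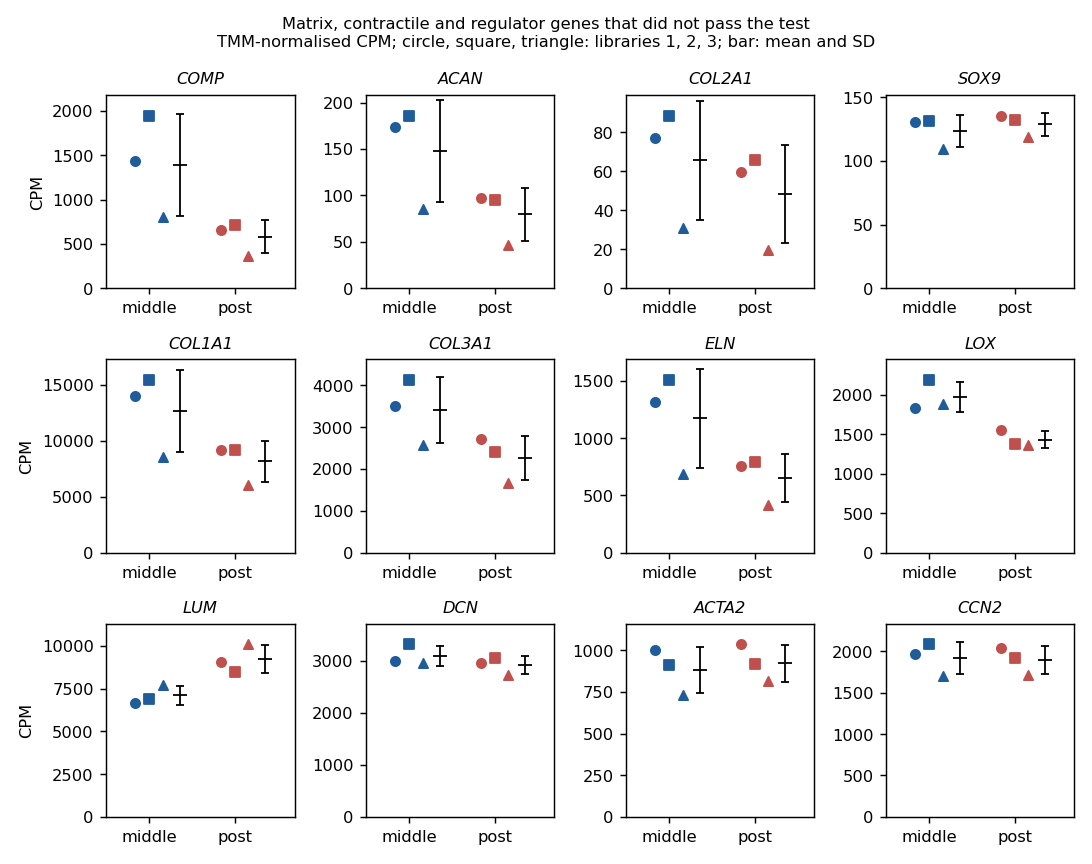
Panels show 12 matrix, contractile and regulator genes that did not pass the test, with TMM-normalised CPM in each of the 3 unanchored middle (blue) and 3 unanchored post (red) libraries and the mean and SD beside them. All genes shown except LOX and LUM are lowest in library 3 of each region. COMP, LOX and LUM do not overlap between regions, and the other genes do.

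The genes of the fibrous collagens did not pass, although their estimates leaned the same way. COL1A1, the main collagen of fibrous tissue, had 13952, 15427 and 8539 CPM in middle libraries 1, 2 and 3 and 9202, 9175 and 6045 in post libraries 1, 2 and 3. Middle library 3 lay below post libraries 1 and 2, and the log2 fold change was -0.63 (adjusted p = 0.163 by edgeR, SE 0.204). COL3A1, which forms fibers together with type I collagen, averaged 3399 ± 789 CPM in the middle and 2259 ± 532 at the post (SD, n = 3), at -0.59 (adjusted p = 0.105 by edgeR, SE 0.165). COL1A2 stood at -0.38 (adjusted p = 0.242 by edgeR). Without middle library 3 both COL1A1 and COL3A1 passed (adjusted p = 0.035 and 0.0208), as they did without a filter on low counts (8.63e-06 and 4.87e-05). All 7 fibrillar collagen genes had negative estimates, with a median of -0.38, and 0 passed by edgeR. At an unadjusted p under 0.05 there were 4, all lower, beside 13.9% of all genes in either direction. DESeq2 called 2 of the 7 lower, COL3A1 among them (adjusted p = 0.0298), and limma voom 0. DESeq2 gave no adjusted p for 8260 of the 11834 genes, among them 2 of these 7. Here and below, such genes could not be called by it.

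Other matrix groups leaned toward lower values at the post with 0 members past the threshold by edgeR. All 16 elastic fibre genes had negative estimates, with a median of -0.29. ELN, the gene of elastin, had 1318, 1508 and 686 CPM in the middle and 757, 790.4 and 413 at the post, and its groups overlapped (-0.84, adjusted p = 0.139 by edgeR). Without middle library 3 it passed (adjusted p = 0.0208), and so it did without a filter (8.50e-11). MFAP2, a microfibril protein, stood at -0.20 (0.384). All 21 collagen processing and crosslinking enzymes had negative estimates too, with a median of -0.24. LOX, the enzyme that crosslinks collagen and elastin, had 1836, 2190.2 and 1884 CPM in the middle and 1554, 1372 and 1370.2 at the post. Its groups did not overlap, but it did not pass (-0.46, adjusted p = 0.166 by edgeR). With the 6 libraries alone or without a filter LOX passed (0.0236 and 0.00579). SERPINH1, the collagen chaperone, stood at -0.03 (0.938). Unadjusted, at p under 0.05, 8 elastic fibre genes and 10 of these enzymes were lower and 0 higher, beside 13.9% of all genes in either direction. DESeq2 called 1 and 2 of them lower, and voom 0.

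For the network and fibril-associated collagens 11 of 12 estimates were negative, with a median of -0.22. COL12A1 stood at -0.33 and COL6A1 at -0.18 (adjusted p = 0.277 and 0.643 by edgeR). The 12 small leucine-rich proteoglycans, regulators of collagen fibril spacing, went both ways, with 9 negative and a median of -0.20. LUM (lumican) had 6655, 6915 and 7736 CPM in the middle and 9054, 8489 and 10098 at the post. Every post library was above every middle library, with a log2 fold change of 0.38 (adjusted p = 0.176 by edgeR, SE 0.124), and DESeq2 called it higher (adjusted p = 0.0177). DCN (decorin) overlapped between regions at -0.09 (0.759). By edgeR 0 genes of either group passed. Before adjustment, 4 network collagens and 4 proteoglycans were lower and 1 proteoglycan higher at p under 0.05. Of all genes 13.9% passed this in either direction. DESeq2 called 1 collagen and 2 proteoglycans lower and 1 proteoglycan higher, and voom 0.

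ADAMTSL4 and MXRA5, genes of matrix-associated secreted proteins, passed outside those groups. ADAMTSL4, a secreted relative of the ADAMTS proteases that lacks their catalytic part and binds fibrillin, had 58.5, 73.7 and 45 CPM in the middle and 28.6, 37.1 and 28.4 at the post. It fell by 0.92 (adjusted p = 0.00751 by edgeR, SE 0.152). Without middle library 2 (adjusted p = 0.121), post library 1 (0.0505) or post library 3 (0.0732) the gene did not pass. MXRA5, named for matrix remodelling, averaged 41.5 ± 8.47 CPM in the middle and 25 ± 3.00 at the post (SD, n = 3) and fell by 0.73 (adjusted p = 0.027 by edgeR). It is 1 of 24 genes past the threshold that the rule for naming genes did not reach and that were chosen here after their values were seen. They are MXRA5, TMEM100, CALCRL, RET, MEST, NFIB, MGST1, PKD1, WWP2, SGPL1, GALNT10, SMC4, GLCE, AKAP9, SLC40A1, RASL11B, ANKRD12, PNISR, AGO3, PLAC9, NIPBL, ATP2B4, ANXA2 and MSLN. Without middle library 2 the adjusted p of MXRA5 was 0.279, and 4 of the 6 omissions ended its call.

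The most abundant secreted regulator among the falls was IGFBP3 (ENSBTAG00000003994), an insulin-like growth factor binding protein that limits the access of these factors to their receptor. It had 1275, 1432 and 1278 CPM in middle libraries 1, 2 and 3 and 714, 778 and 592 in post libraries 1, 2 and 3. The lowest middle library was above the highest post library by more than the whole range of either group, and the gene fell by 0.94 in log2 units (adjusted p = 0.00348 by edgeR, SE 0.142). The call ended without middle library 2 (adjusted p = 0.0515), and 35.2% of its counts sat in non-whole values. It was the 1 gene of 10 measured insulin-like growth factor genes that passed, beside 0.38% of all genes called lower. IGFBP2, another member, overlapped between regions at -0.04 (adjusted p = 0.95 by edgeR). The median of the 10 was -0.10.

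Several other secreted proteins were lower at the post. FGL2 (ENSBTAG00000009717), a fibrinogen-like protein with roles in coagulation and immune regulation, had 28.2, 38.2 and 40.5 CPM in middle libraries 1, 2 and 3 and 17.2, 15.6 and 14.5 in post libraries 1, 2 and 3. The post libraries lay close together and well below the middle ones, a fall of 1.16 (adjusted p = 0.00209 by edgeR, SE 0.167) that held in all 6 omissions (adjusted p up to 0.0391). HP, the gene of haptoglobin, which binds free hemoglobin, had 12.9, 19.2 and 18.7 CPM in the middle and 6.89, 7.61 and 8.47 at the post. It fell by 1.14 (adjusted p = 0.00386 by edgeR, SE 0.177), and the call ended without middle library 2 (adjusted p = 0.0715). CCN5, a matricellular protein of the CCN family, had 15, 17.5 and 14.5 CPM in the middle and 6.4, 8.58 and 4.67 at the post, a fall of 1.27 (adjusted p = 0.0145 by edgeR, SE 0.232). That call was lost without middle library 2 (adjusted p = 0.131), post library 1 (0.0769) or post library 3 (0.157).

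CHI3L1, a chitinase-like protein without enzyme activity that chondrocytes and synovial cells secrete, had 119.6, 179.9 and 109.9 CPM in the middle and 66.9, 83.7 and 44.3 at the post. It fell by 1.07 (adjusted p = 0.0263 by edgeR, SE 0.217), but did not pass without middle library 1 (adjusted p = 0.0556), middle library 2 (0.279), post library 1 (0.0842) or post library 3 (0.197). NPTX1, a secreted pentraxin best known from neurons, had 34.7, 33.1 and 25.3 CPM in the middle and 17.2, 19.3 and 11.1 at the post, a fall of 0.98 (adjusted p = 0.0356 by edgeR, SE 0.21). Its call ended without middle library 1 (adjusted p = 0.175), middle library 2 (0.276), post library 1 (0.0842) or post library 3 (0.237), and with the 12 molded libraries (0.0553). CXCL12, a chemokine that acts through the receptor CXCR4, had 83.8, 96.2 and 79.4 CPM in the middle and 64.5, 58.1 and 55.2 at the post. It was the 1 of 16 measured chemokine, cytokine and adhesion genes that passed, beside 0.38% of all genes called lower. The fall was 0.54 (adjusted p = 0.0298 by edgeR, SE 0.114), and the median of the 16 was -0.14. Without middle library 1 (adjusted p = 0.0829), middle library 2 (0.279), post library 1 (0.0757), post library 2 (0.118) or post library 3 (0.202) it did not pass. TNFAIP6, which binds hyaluronan, stood at -0.19 and did not pass (adjusted p = 0.442 by edgeR).

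**Figure D3:**
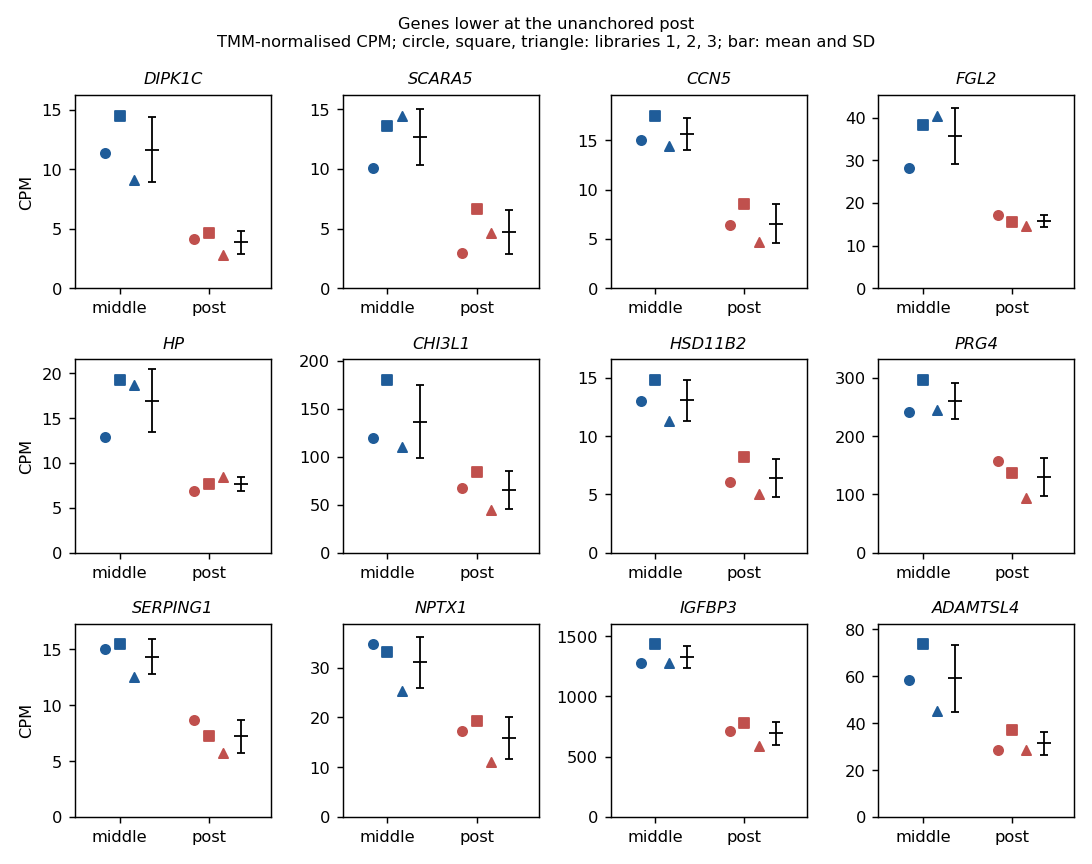
Panels show the 12 genes with the largest falls under the naming rule, with TMM-normalised CPM from 0 in each of the 3 unanchored middle (blue) and 3 unanchored post (red) libraries and the mean and SD beside them. In every panel the 3 post libraries lie below the 3 middle libraries, as the naming rule required. SCARA5 is lowest in post library 1, and CHI3L1 and ADAMTSL4 are highest in middle library 2.

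The first complement component was represented by 3 genes. C1R and C1S encode the pair of proteases of the C1 complex, and SERPING1 encodes the inhibitor that removes them from it. C1R had 29.8, 39.4 and 30.9 CPM in the middle and 21.3, 22.4 and 11.1 at the post, with post library 3 well below the other post libraries, and fell by 0.87 (adjusted p = 0.0435 by edgeR, SE 0.194). C1S had 92.7, 118 and 119.6 CPM in the middle and 72.4, 79 and 68.8 at the post and fell by 0.59 (adjusted p = 0.0435 by edgeR, SE 0.131). SERPING1 had 15, 15.5 and 12.6 CPM in the middle and 8.7, 7.22 and 5.71 at the post and fell by 0.99 (adjusted p = 0.0478 by edgeR, SE 0.226). These were the 3 of 11 measured complement genes that passed, beside 0.38% of all genes called lower. The median of the 11 was -0.28, and 0 were called higher. Of the 11, 7 had negative estimates (63.6%, against 51.7% of all genes), and the highest estimate was 0.63. C1R did not pass without middle library 1 (adjusted p = 0.0829), middle library 2 (0.362), post library 1 (0.0784) or post library 3 (0.261), C1S without middle library 2 (adjusted p = 0.308), middle library 3 (0.0735), post library 1 (0.137), post library 2 (0.0863) or post library 3 (0.229), and SERPING1 without middle library 1 (adjusted p = 0.177), middle library 2 (0.279), post library 1 (0.0813), post library 2 (0.128) or post library 3 (0.264). RLE scaling ended the calls of C1S (0.0523) and SERPING1 (0.0523), and the 12 molded libraries that of C1R (0.0521). SERPING1 also did not pass with upper-quartile scaling (0.0532), voom (0.0583) or a count minimum of 50 (0.054). Of the counts of C1R, 40.1% sat in non-whole values.

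HSD11B2, the enzyme that inactivates cortisol, had 13, 14.8 and 11.3 CPM in the middle and 6.07, 8.19 and 5.02 at the post. It fell by 1.04 (adjusted p = 0.0275 by edgeR, SE 0.214). Of 14 measured genes listed as glucocorticoid-responsive it was the 1 that passed, beside 0.38% of all genes called lower. Whether HSD11B2 responded to glucocorticoid here was not tested. FKBP5, a target of the glucocorticoid receptor, overlapped between regions at 0.09 (adjusted p = 0.739 by edgeR), and the median of the 14 was -0.07. HSD11B2 did not pass without middle library 1 (adjusted p = 0.0908), middle library 2 (0.276), post library 1 (0.103) or post library 3 (0.204). SCARA5, a scavenger receptor that takes up ferritin, had 10.1, 13.6 and 14.5 CPM in the middle and 2.95, 6.63 and 4.67 at the post, a fall of 1.43 (adjusted p = 0.013 by edgeR, SE 0.248). The call ended without middle library 2 (adjusted p = 0.121), post library 1 (0.0769) or post library 3 (0.0732). SLC40A1, the iron exporter ferroportin, averaged 77.1 ± 12.4 CPM in the middle and 50.7 ± 4.58 at the post (SD, n = 3) and fell by 0.60 (adjusted p = 0.0145 by edgeR). MGST1, a membrane glutathione transferase, averaged 40.9 CPM in the middle and 25.1 at the post and fell by 0.71 (0.0265). Without middle library 2, the adjusted p was 0.221 for SLC40A1 and 0.131 for MGST1, and 3 and 4 of the 6 omissions ended their calls.

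The steepest fall by estimate among the 53 genes was that of DIPK1C, named for a divergent protein kinase domain. It had 11.3, 14.5 and 9.07 CPM in middle libraries 1, 2 and 3 and 4.1, 4.68 and 2.77 in post libraries 1, 2 and 3, and fell by 1.60 (adjusted p = 0.0198 by edgeR, SE 0.309). Without middle library 1 (adjusted p = 0.0603), middle library 2 (0.195), post library 1 (0.0769) or post library 3 (0.172) it did not pass. Receptors and signalling proteins followed at smaller sizes. RET, the receptor tyrosine kinase for neurotrophic factors of the GDNF family, had 4.53, 6.31 and 3.66 CPM in the middle and 1.8, 2.15 and 2.08 at the post and fell by 1.27 (adjusted p = 0.0478 by edgeR). It rested on 11 or 12 counts in each post library and on 21 to 40 in each middle library. CALCRL, the receptor for adrenomedullin and calcitonin gene-related peptide, averaged 26.3 CPM in the middle and 14.6 at the post and fell by 0.85 (0.0271). TMEM100, a membrane protein downstream of BMP signalling, averaged 74.5 CPM in the middle and 40.9 at the post and fell by 0.87 (0.0247). PKD1 (polycystin 1, a large membrane protein of the primary cilium) fell by 0.70 (0.0134) and RASL11B, a small GTPase, by 0.58 (0.0145). Without middle library 2 the adjusted p was 0.374, 0.121, 0.209, 0.131 and 0.186 for RET, CALCRL, TMEM100, PKD1 and RASL11B. Between 2 and 6 of the 6 omissions ended each of these calls. RET also did not pass with RLE scaling (0.0523), upper-quartile scaling (0.0529), voom (0.0695) or without genes in non-whole values (0.0509).

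NFIB, a transcription factor, fell by 0.71, SMC4, a subunit of condensin, by 0.66 and NIPBL, which loads cohesin onto DNA, by 0.49 (adjusted p = 0.0271, 0.0356 and 0.0298 by edgeR). NIPBL had 81.2, 85 and 86.9 CPM in the middle and 61.7, 54.6 and 63.1 at the post, the groups lying apart with little spread in either. WWP2, a ubiquitin ligase, fell by 0.69 and AGO3, an Argonaute protein of small RNA silencing, by 0.57 (0.0243 and 0.0388). ANKRD12 fell by 0.58 and PNISR by 0.58 (0.0478 and 0.0443). Without middle library 2 the 7 adjusted p, in the order NFIB, SMC4, NIPBL, WWP2, AGO3, ANKRD12 and PNISR, were 0.279, 0.279, 0.221, 0.276, 0.279, 0.374 and 0.374. From 4 to 6 of the 6 omissions ended each call. With the 12 molded libraries SMC4 (0.0576), AGO3 (0.0553) and PNISR (0.0743) did not pass, and with RLE scaling ANKRD12 (0.0523) and PNISR (0.0523) did not, nor PNISR by voom (0.0502).

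GLCE, which converts glucuronic acid in heparan sulfate, averaged 175 CPM in the middle and 113 at the post and fell by 0.63 (adjusted p = 0.0263 by edgeR). GALNT10, which starts O-linked glycans, fell by 0.66 and SGPL1, which cleaves sphingosine phosphate, by 0.68 (0.0356 and 0.0243). ANXA2, an annexin that binds membranes in the presence of calcium, averaged 1086 ± 129 CPM in the middle and 790.3 ± 16 at the post (SD, n = 3) and fell by 0.46 (0.0492). The calcium pump ATP2B4 fell by 0.47 and the kinase anchor AKAP9 by 0.62 (0.0377 and 0.0338), with 83.2% of AKAP9 counts in non-whole values. PLAC9 fell by 0.53 (0.0413). MEST, an imprinted gene of a hydrolase-like protein, had 217, 283 and 121 CPM in the middle and 131, 107 and 67.4 at the post, a fall of 1.02 (0.0398), although middle library 3 lay below post library 1. Without middle library 2 the adjusted p ranged from 0.131 (SGPL1) to 0.374 (MEST and PLAC9), with 0.251 for GLCE, 0.338 for GALNT10, 0.279 for ANXA2, 0.308 for ATP2B4 and 0.308 for AKAP9. The 12 molded libraries ended the calls of ANXA2 (0.0878), GALNT10 (0.0579) and MEST (0.0567). ANXA2 was also lost with RLE and upper-quartile scaling (0.0552 and 0.0546), MEST by voom (0.0544) and ATP2B4 without genes in non-whole values (0.051). The remaining 5 genes that fell carry no symbol: 3 long noncoding RNAs, 1 protein-coding gene and a mitochondrial transfer RNA, with log2 fold changes from -1.48 to -0.69.

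Among the 8 genes higher at the post, SFRP2 had the largest change. It encodes a secreted antagonist of Wnt signalling. Of 16 measured BMP and Wnt ligands and antagonists it was the 1 that passed, beside 0.0676% of all genes called higher. It had 1.13, 0.631 and 0.349 CPM in middle libraries 1, 2 and 3 and 4.59, 4.49 and 4.67 in post libraries 1, 2 and 3. These rest on few counts, 8, 4 and 2 in the middle libraries and 28, 23 and 27 in the post libraries. The post libraries lay close together and above all middle libraries, a log2 fold change of 2.61 (adjusted p = 0.00209 by edgeR, SE 0.374). The call held in all 6 omissions (adjusted p up to 0.0391). The median of the 16 genes was -0.00418, and FSTL1, another secreted member, stood at -0.34 (adjusted p = 0.188 by edgeR). MSLN, the cell surface protein mesothelin, rose from 12 to 17 counts in each middle library to 25 to 31 in each post library. Scaled, it had 1.7, 2.68 and 2.09 CPM in the middle and 4.92, 6.05 and 4.32 at the post, a log2 fold change of 1.23 (adjusted p = 0.0384 by edgeR, SE 0.268), and did not pass without middle library 1 (adjusted p = 0.214), middle library 2 (0.131), middle library 3 (0.0517), post library 1 (0.0951), post library 2 (0.132) or post library 3 (0.14).

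ARPC3, a subunit of the Arp2/3 complex that branches actin filaments, had 114, 111 and 110.4 CPM in the middle and 159.7, 178 and 204 at the post. The middle libraries were almost equal and the post libraries all higher, a rise of 0.69 (adjusted p = 0.0145 by edgeR, SE 0.128). It did not pass without middle library 1 (adjusted p = 0.0603), middle library 2 (0.131) or post library 3 (0.157), and 55.6% of its counts sat in non-whole values. MT1A, a metallothionein that binds zinc and copper, had 80.5, 71.3 and 64.9 CPM in the middle and 126, 114 and 93.7 at the post and rose by 0.62 (adjusted p = 0.0356 by edgeR, SE 0.134). Its call ended without middle library 1 (adjusted p = 0.0624), middle library 2 (0.276), middle library 3 (0.0666), post library 1 (0.151) or post library 2 (0.118). With the 12 molded libraries it did not pass either (0.0521). Of 4 measured metallothionein identifiers, which carry 3 distinct symbols, 1 passed, beside 0.0676% of all genes called higher. The median was 0.48. In all 4 the post libraries lay above the middle libraries, which was so for 10.1% of all genes tested. MT2A stood at 0.38 (adjusted p = 0.25 by edgeR, and 0.0442 with the 6 libraries alone). The members are similar in sequence, with 82.2% and 85.1% of the counts of MT1A and MT2A in non-whole values. They may not be independent of each other, which was not tested, and which of them changed is uncertain.

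UBE2B, a ubiquitin-conjugating enzyme, had 111, 108 and 119 CPM in the middle and 150.0, 147 and 162 at the post and rose by 0.44 (adjusted p = 0.0298 by edgeR, SE 0.0931). ACYP1, an acylphosphatase, had 17.7, 16.6 and 17.4 CPM in the middle and 26.4, 22.6 and 27.2 at the post, a rise of 0.56 (adjusted p = 0.0414 by edgeR, SE 0.124). In both genes the post libraries lay above all middle libraries. UBE2B did not pass without middle library 1 (adjusted p = 0.132), middle library 2 (0.279), post library 1 (0.0842), post library 2 (0.0635) or post library 3 (0.202), and ACYP1 without middle library 1 (adjusted p = 0.13), middle library 2 (0.279), post library 1 (0.139) or post library 3 (0.229). With the 12 molded libraries ACYP1 was lost as well (0.0521). The other two rises had no symbol. One was a long noncoding RNA, at 0.66 (adjusted p = 0.0243 by edgeR). The other was a ribosomal RNA gene (ENSBTAG00000060382), with 654, 439 and 348 CPM in middle libraries 1, 2 and 3 and 918, 2878 and 766 in post libraries 1, 2 and 3. Post library 2 held most of that difference, all of its counts sat in non-whole values, and ribosomal RNA genes as a whole took 0.0362% to 0.0692% of counts in the middle and 0.0782% to 0.291% at the post. The gene did not pass without middle library 1 (adjusted p = 0.0829), middle library 2 (0.308), middle library 3 (0.0872), post library 1 (0.0505) or post library 2 (0.268), nor with the 12 molded libraries (0.0825), DESeq2 (0.0531), voom (0.0892) or a count minimum of 50 (0.0605).

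**Figure D4:**
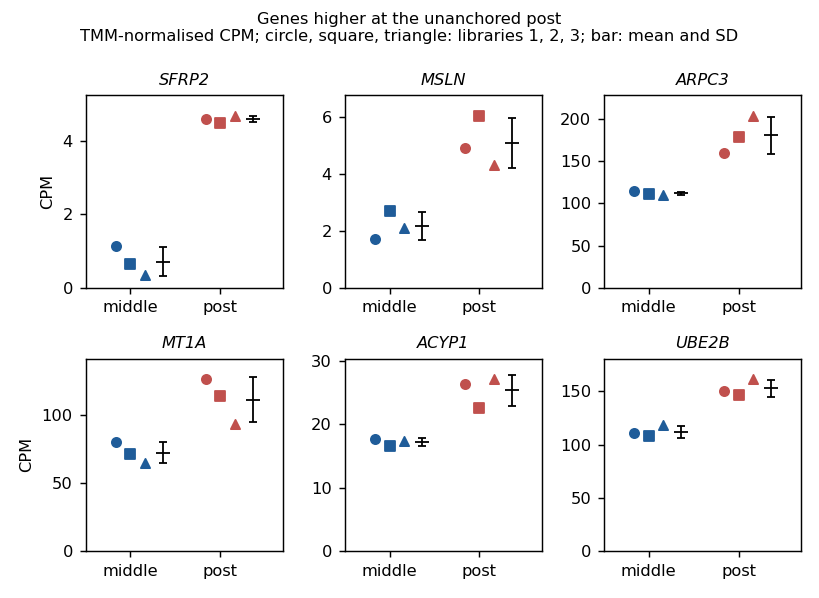
Panels show the 6 genes with a symbol that were higher at the post, with TMM-normalised CPM from 0 in each of the 3 unanchored middle (blue) and 3 unanchored post (red) libraries and the mean and SD beside them. SFRP2 and MSLN lie at a few CPM, and in all 6 panels the post libraries lie above the middle libraries.

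Features of the libraries moved with the region, and their part in these results was not tested. The share of a library's counts in such non-whole values, each entered in full, was 42.7% to 44.0% in the middle and 46.8% to 47.4% at the post. Messenger RNA of the mitochondrial genome made up 2.06% to 2.35% of counts in the middle and 1.52% to 1.97% at the post. Mitochondrial ribosomal RNA lay the other way, at 1.61% to 1.83% in the middle and 2.02% to 2.09% at the post. Of 9 liver and serum markers 5 were tested and 0 passed, 3 with positive and 2 with negative estimates. AFP, which encodes alpha-fetoprotein, had, as a share of the library total, 23.7, 34.1 and 40.4 CPM in the middle and 50.5, 82.9 and 48.9 at the post (log2 fold change 0.91, adjusted p = 0.232 by edgeR). AFP passed with the 6 libraries alone (adjusted p = 0.0273), without the 3 shallow libraries (0.0344) and without a filter (4.84e-10). The 9 markers, to which AFP contributed, summed to 71.9 to 93.8 CPM in the middle and 101 to 153 at the post, with SERPINA1 at 0 counts. SFTPC, a gene of lung epithelium, had 3.41, 4.6 and 4.41 CPM in the middle and 6.17, 10 and 5.74 at the post, also without passing (0.82, 0.281, and 0.0384 without a filter). Of 6 lung markers 4 had 0 counts. The 9 epithelial markers summed to 5.94 to 7.62 CPM in the middle and 7.92 to 11.9 at the post. Leaving out genes with over 10% of their counts in such values left 7822 genes, of which 34 passed, 28 lower and 6 higher.

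Contractile, YAP target and adhesion genes gave 0 calls between the regions by edgeR. The 16 contractile genes had a median of 0.06. ACTA2, smooth muscle actin, had 1000.5, 914 and 733 CPM in the middle and 1037, 919 and 813 at the post, at 0.07 (SE 0.138, adjusted p = 0.878 by edgeR). TAGLN (transgelin) stood at -0.03 and CNN1 (calponin) at 0.24 (0.946 and 0.613). Of 13 targets of the co-activator YAP, 0 passed, with a median of -0.02, and CCN2, a matricellular protein among them, stood at -0.02 (SE 0.114, 0.956). Of 23 integrin and focal adhesion genes 0 passed, with a median of -0.08 and ITGB1, the shared β1 subunit, at -0.03 (0.93). At an unadjusted p under 0.05 there were 1 higher contractile gene, 2 higher YAP targets and 3 lower adhesion genes, beside 13.9% of all genes. DESeq2 called 1 adhesion gene lower and voom 0 genes of the 3 groups. DESeq2 gave no adjusted p for 7 contractile genes, 8 YAP targets and 10 adhesion genes.

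Tendon and growth factor groups gave 0 calls by edgeR as well. Of 15 tendon and fibrous tissue genes the median was -0.20. The tendon transcription factors SCX and MKX stood at -0.31 and 0.08 (adjusted p = 0.477 and 0.815 by edgeR), and TNC, the gene of tenascin C, at 0.06 (0.898). FN1 (fibronectin) and THBS1 (thrombospondin 1) stood at -0.23 and -0.26 (0.479 and 0.551). Of 19 TGF-β ligands, receptors and feedback genes 16 had negative estimates, with a median of -0.22. LTBP1, which stores TGF-β in the matrix, stood at -0.34 (0.286). The unadjusted threshold was passed by 4 lower and 1 higher tendon genes and 5 lower TGF-β genes, beside 13.9% of all genes in either direction. DESeq2 called 0 and 1 lower, and voom 0 of either group. For 5 tendon and 7 TGF-β genes DESeq2 gave no adjusted p.

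Groups of metabolism and stress were near the median of all genes, except that antioxidant and mitochondrial genes leaned in opposite directions. Of 15 antioxidant genes 13 had positive estimates, with a median of 0.20, and 0 passed by edgeR. FTH1, the ferritin heavy chain, had 1628, 1604 and 1755 CPM in the middle and 2131, 2139 and 2114 at the post (0.36, adjusted p = 0.163 by edgeR). Its groups did not overlap, and all of its counts sat in non-whole values. PRDX1, a peroxidase, stood at 0.29 (0.346). At an unadjusted p under 0.05, 7 were higher and 1 lower, beside 13.9% of all genes in either direction. DESeq2 called 3 higher, FTH1 among them (adjusted p = 0.0303), and voom 0. FTH1 also passed with the 6 libraries alone (0.0381). Of the 13 mitochondrially encoded genes 12 had negative estimates, with a median of -0.25 and 0 calls by edgeR. COX1, a subunit of cytochrome oxidase, had 4032, 3911 and 4595 CPM in the middle and 3219, 2942 and 2941 at the post (-0.46, 0.118). Of the 13, 5 were lower and 1 higher at an unadjusted p under 0.05. DESeq2 called 1 lower, COX1 (adjusted p = 0.029), and voom 0. COX1 also passed with the 6 libraries alone (0.0224), without the 3 shallow libraries (0.035) and without a filter (0.00562).

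For glycolysis (21 genes), hypoxia (19), cholesterol synthesis (19), endoplasmic reticulum chaperones (22), immediate early genes (18), interferon-stimulated genes (7), lipid storage (8), hypertrophy and mineralisation (5) and the cell cycle (28), the medians lay between -0.07 and 0.10, and 0 passed by edgeR, DESeq2 or voom. In each of these 9 groups some genes had no adjusted p by DESeq2 and could not pass it. They were 18 of the 28 cell cycle genes and 6 of the 7 interferon-stimulated genes, for example. At an unadjusted p under 0.05 the groups held at most 3 higher and 2 lower genes each, beside 13.9% of all genes in either direction. The proliferation marker MKI67 stood at -0.13 (SE 0.322, adjusted p = 0.895 by edgeR), the glycolytic enzyme ENO1 at 0.06 (SE 0.126, 0.875) and HMGCS1, an early enzyme of cholesterol synthesis, at 0.01 (SE 0.0941, 0.969). VEGFA, the angiogenic growth factor, had 11.8, 12.5 and 15.3 CPM in the middle and 16.4, 17.9 and 16.8 at the post and did not pass (0.37, 0.435). All 10 measured S100 genes had positive estimates, with a median of 0.19. Of them 0 passed by any of the 3 tools or at an unadjusted p under 0.05, though 3 had no adjusted p by DESeq2. Matrix proteases and inhibitors (16 genes, median -0.20) and glycosaminoglycan synthesis (16 genes, -0.07) held 0 calls by edgeR. Each had 4 lower and 1 higher gene at an unadjusted p under 0.05, beside 13.9% of all genes in either direction. DESeq2 called 1 and 2 lower and voom 0. CTSK, the collagen-degrading cathepsin K, stood at 0.30, and TIMP1, a metalloprotease inhibitor, at 0.01 (0.35 and 0.992).

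The same regions of anchored tissue, cast with post anchors, gave values to set beside these. The anchored and unanchored comparisons share no library, though they share the model's estimate of spread. In anchored tissue 227 genes passed (1.92%), 197 lower at the post (1.66%) and 30 higher (0.254%). Leaving out 1 anchored library gave 62 (post library 3), 95 (middle library 3), 118 (post library 1) or, for the other three, 181 to 284. All 53 genes had anchored estimates of the same sign, against 70.3% of all genes tested. Of the 45 genes lower at the unanchored post, 41 were also called lower at the anchored post, which is 91.1% of the unanchored list and 20.8% of the anchored one. Of the 8 higher genes 3 were called higher, MSLN, MT1A and the long noncoding RNA, which is 37.5% and 10% of the 2 lists. The median anchored log2 fold change of the 45 was -0.85, beside -0.71 in unanchored tissue.

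**Figure D5:**
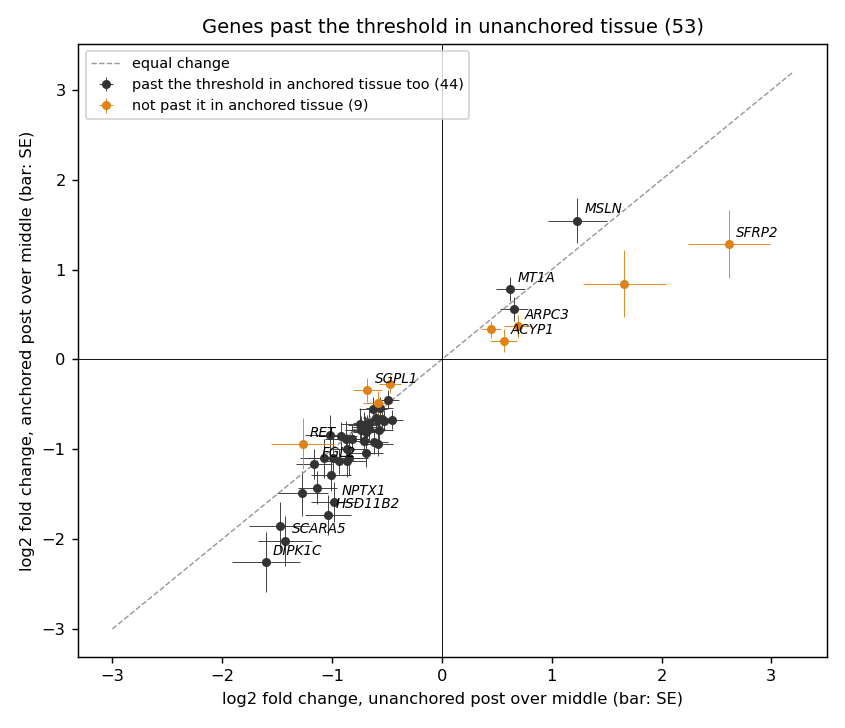
Each point is 1 of the 53 genes past the threshold in unanchored tissue, with its log2 fold change of post over middle in unanchored (horizontal) and anchored (vertical) tissue and standard errors as bars. All points lie below 0 or above 0 on both axes; 44 genes passed in both mold types (dark) and 9 did not pass in anchored tissue (orange), among them SFRP2, RET and SGPL1.

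Which genes differed in their region effect between the mold types was asked with an interaction term. By edgeR 0 of 11834 genes passed (0%). At an unadjusted p under 0.05 there were 223 (1.88%), and DESeq2 and voom also called 0. The 9 genes called in unanchored tissue alone are thus not shown to differ between mold types. SFRP2 had a log2 fold change of 2.61 in unanchored and 1.28 in anchored tissue, and the difference between these was 1.33 (SE 0.579, adjusted p = 1 by edgeR). For RET, SGPL1, C1S and ATP2B4 the anchored values were -0.94, -0.34, -0.49 and -0.27 (adjusted p = 0.0913, 0.24, 0.0548 and 0.213 by edgeR). For UBE2B, ACYP1 and ARPC3 they were 0.34, 0.21 and 0.37 (0.062, 0.49 and 0.168), and for the ribosomal RNA gene 0.84 (0.306). Some falls had larger estimates in anchored tissue. HSD11B2 stood at -1.04 and -1.73, NPTX1 at -0.98 and -1.59, SCARA5 at -1.43 and -2.02, and DIPK1C at -1.60 and -2.26, and for none of these 4 did the interaction pass. FGL2 had nearly the same value in both, -1.16 and -1.17. The group with most members called in anchored tissue was the cartilage matrix genes, 8 of 12 lower beside 2 in unanchored tissue, with medians of -0.998 and -0.60. Of all genes, 1.66% were called lower in anchored and 0.38% in unanchored tissue. COMP was called there, at -1.60 (adjusted p = 0.0036 by edgeR), and the difference from its unanchored value was 0.34 (SE 0.406).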

How the data were processed

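Poly-A RNA was captured with an oligo-dT primer that carried a sample barcode and a molecular identifier, and libraries were made by tagmentation, per the labels' protocols. Reads were aligned with STAR 2.7, handled with SAMtools 1.21, counted with featureCounts from Subread 2.1.1 and reviewed with MultiQC 1.33, per the submitters' processing notes. The genome build, the annotation, strand settings and the use of the molecular identifiers were not given in the sources used here. The authors deposited 1 table with estimated counts, many of them not whole, and CPM for each library. The deposited CPM equalled the counts divided by their library total. Gene symbols and identifiers are those of the table: 17715 of 38001 gene rows carry no symbol. The 92 rows of spike-ins entered neither the tests nor the library sizes of the models. They were part of the total counts given above, by which marker CPM and shares of counts were divided.

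Counts were rounded and genes kept by filterByExpr (minimum count 10, minimum total 15), leaving 11834. All 15 libraries, 3 in each of 5 groups, entered 1 edgeR 4.0.16 model (R 4.3.3) with a mean per group, TMM scaling and the two-sided quasi-likelihood test, adjusted by Benjamini-Hochberg at 0.05. CPM values per library are TMM-normalised; those of markers for other cells are scaled to the library total, and depths limit the precision of genes at a few CPM. Alternatives were other sets of libraries, scalings, filters and rounding, DESeq2 1.42.0, limma 3.58.1 voom, a replicate block and leaving out each library. The procedure was tested on simulated counts.

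Genes were named by rule: up to 12 rises and 12 falls by size among called genes with a unique symbol, at least 10 CPM in 1 group and no overlap between groups; up to 4 called genes of each of 32 lists, or its most abundant members to make 2; 20 genes of a panel; and abundant markers of other cells. A gene that the rule reached is not reported here. The comparison, the lists and the rules were chosen with earlier results of these data known.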

Additional observations from a re-analysis of the deposited data

Results flagged for a closer look

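The spike-in rows of the deposited table, which no comparison used, held counts in all 6 unanchored libraries, from 26 to 51 per library, where a count of 0 would allow up to 3. The labels do not mention a spike-in.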

How the results depend on the processing

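For the unanchored comparison, 53 genes passed (8 higher, 45 lower). The count was 192 with the 6 libraries alone (70 higher), 133 by DESeq2 (58 higher), which gave an adjusted p for 29 of the 53 genes and called 28 of them (8260 adjusted p were missing in all), 272 without a filter on low counts (80 higher), 149 without the 3 shallowest libraries (46 higher) and 34 without genes with over 10% of their counts in non-whole values. The last 2 alternatives were chosen after seeing the data. The cause of the differences was not tested. It lay between 44 and 53 with the 12 molded libraries, other scalings, voom, a count minimum of 50 and rounding down, and 35 of the 53 genes passed, wherever they had an adjusted p, with every set of libraries, scaling, tool, filter and rounding tried and with the replicate block, as long as all 6 libraries were kept and genes in non-whole values were not removed. Leaving out 1 library gave 2 to 134 genes.

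For the anchored comparison, 227 genes passed, and 104 with its 6 libraries alone, 479 without a filter and 125 without genes in non-whole values; leaving out 1 library gave 62 to 284. For the interaction, 0 genes passed under every alternative except 3 without a filter. With the replicate number as a block, 63 genes passed in unanchored tissue (7 higher, 56 lower, 49 of them among the 53), 273 in anchored tissue and 0 for the interaction. COMP passed with the block (adjusted p = 0.0141 by edgeR), and the 4 genes lost with it were CILP (0.0519), ANKRD12 (0.0519) and 2 without a symbol. Deviations of same-numbered post and middle libraries correlated at 0.0981, 0.122 and 0.297, and those of other pairs at -0.194 to 0.0745. Every library correlated best with its own number, a hint from the data rather than the design, and the pairing was not used.

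Depth limits the genes at a few CPM: SFRP2, MSLN and RET rest on 2 to 40 counts per library.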
